A study of Homo sapiens with 12 samples.

Results

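ZNF683, PRDM1, ITGA1, ITGAE, CD69, RUNX3, KLF2, S1PR1 and CCR7 are 9 genes tied to the choice of a T cell between staying in a tissue and leaving it, and they were read by symbol from both deposited expression tables of a series of 12 Jurkat libraries. All 9 were listed in both tables, among 55514 genes in the table of ZNF683 and Mock libraries, 44389 genes in the doxycycline table and 56098 genes in all. Jurkat is an established human T cell leukaemia line grown in suspension, so it has no tissue to reside in or to leave. By its title, the series belongs to work on ZNF683 in CD8 T cells of patients given checkpoint blockade. The first table compared 3 libraries whose genotype is given as Dox-induced ZNF683 (titled Hobit, and called ZNF683 libraries here) with 3 libraries of genotype Mock. The second compared 3 Dox+ with 3 Dox- libraries of the cells titled Hobit. The protocol gives doxycycline, the drug that switches on a doxycycline-inducible construct, at 1 ug/uL as written in the labels. They do not say whether Mock cells received the drug, which promoter or construct was used, whether a line is 1 clone, or whether libraries of a group came from separate cultures. The p-values therefore speak of the variation among the deposited libraries, which could be technical in part or in whole.

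Hobit, the product of ZNF683, and Blimp-1, the product of PRDM1, are related zinc finger repressors known from mouse work to drive the residency programme of memory T cells together. Resident cells are held by the collagen-binding integrin CD49a (ITGA1), by CD103 (ITGAE), which binds E-cadherin on epithelium, and by CD69, which pulls the receptor S1PR1 off the cell surface; RUNX3 is a transcription factor of CD8 and resident cells. The opposite route uses KLF2, a factor that switches on S1PR1, S1PR1 itself, which senses sphingosine 1-phosphate in blood and lymph, and CCR7, the chemokine receptor that guides T cells into lymph nodes and lymphatic vessels. RNA levels show neither surface protein nor movement.

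Values are TPM, a transcript abundance corrected for transcript length, so levels of different genes can be set side by side. The T cell label held in every group: 10 of 10 T cell markers reached 1 TPM, with summed levels of 4218 to 4950 TPM over the ZNF683 and Mock libraries, 3828 to 4141 TPM over Dox+ and 1616 to 3369 TPM over Dox-. CD8A stayed under 1 TPM in all 4 groups. In ZNF683, Mock, Dox+ and Dox-, CD8B was at 3.51, 2.91, 4.64 and 1.89 TPM. CD4 was at 7.50, 7.46, 6.03 and 5.33 TPM in the same groups. In each group 0 of 4 myeloid markers reached 1 TPM. Of 5 NK cell markers, 1 reached it in ZNF683 and Mock and 0 in Dox+ and Dox-. Of 4 epithelial or kidney line markers, 2 reached it in ZNF683 and Mock and 1 in Dox+ and Dox-. B cell markers summed to 37.7 to 55.0 TPM in ZNF683, 40.8 to 58.2 in Mock, 26.4 to 30.5 in Dox+ and 10.4 to 24.9 in Dox-, mostly through CD79A. A pair of Dox- libraries stood apart. In Dox- library 1 a single gene, AL135790.1, took 50.7% of all TPM, against 4.94% to 12.8% in the other 11 libraries, and every other gene there is lower by construction. Dox- library 2 held HSPA6, a heat-shock gene, at 637 TPM, against at most 0.351 TPM in the other doxycycline libraries, and had the lowest correlations with them (0.898 to 0.920). The doxycycline changes of the 9 genes are therefore also given after median-of-ratios scaling and without both of those libraries. The scaling sets libraries equal at the median of all genes above 0 in every library (28962 genes), low ones included. After it the median tested gene still had a log2 change of 0.13. With scaling over the tested genes, those averaging 1 TPM or more, it had 0.0011. Leaving out both libraries leaves 1 Dox- library, whose spread is taken from the Dox+ libraries. Those values are therefore given as sizes and their tests say little. HSPA6 also differed in the first table, at 6.85, 5.88 and 4.06 TPM in Mock and 0.515, 0.399 and 0.618 TPM in ZNF683.

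The 9 genes kept nearly 1 order in all 12 libraries. ITGAE was the highest, at 55.0 to 169 TPM (median over libraries 120.3). CD69 came second at 21.0 to 71.3 TPM (median 43.2), and S1PR1 stood at the next place with 10.5 to 36.7 TPM (median 26.8). That order of the top 3, and S1PR1 above ITGA1, held in 12 of 12 libraries. Below them the neighbours were less apart: ITGA1 (2.71 to 10.4 TPM) exceeded RUNX3 (2.15 to 6.72 TPM) in 9 libraries, RUNX3 exceeded CCR7 (0.587 to 5.58 TPM) in 11, and CCR7 exceeded KLF2 (0.819 to 2.34 TPM) in 10. ZNF683 (0.115 to 1.76 TPM) and PRDM1 (0.219 to 1.34 TPM) were at the bottom, with ZNF683 the higher in 9 of 12 libraries. Among protein-coding genes, ITGAE ranked 1552 of 19278 in the first table and 1196 of 17985 in the second, whereas PRDM1 ranked 12368 and 11759. RNA of the residency integrin ITGAE and of the egress receptor S1PR1 was thus present in every group. In such bulk samples, fewer cells with a transcript and less of it per cell cannot be told apart.

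**Figure D1:**
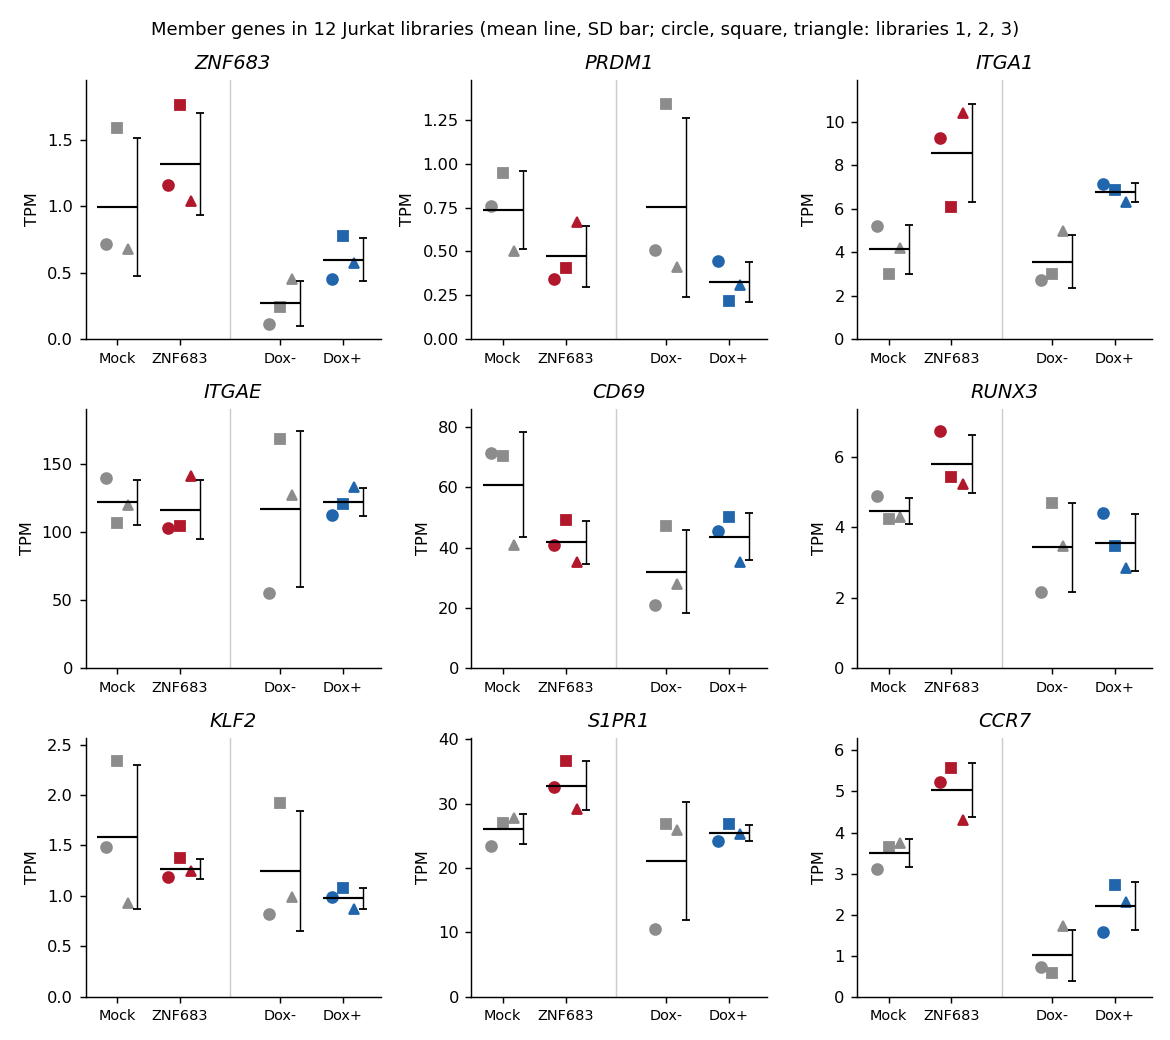
TPM (vertical axes, each from 0) of the 9 genes in each of the 12 libraries, by group along the horizontal axis; symbols are libraries, lines are group means and error bars are SD over 3 libraries. ITGA1 was higher in each ZNF683 library than in each Mock library and in each Dox+ library than in each Dox- library, whereas ITGAE overlapped in both comparisons.

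Changes were tested with limma's moderated test on log2(TPM + 1), a scale that understates the change of low genes, over all genes averaging 1 TPM or more in their table, with Benjamini-Hochberg adjustment over all of them and a threshold of 0.05. Of the 9 genes, 8 were tested against Mock and 7 with doxycycline, and 0 passed the threshold in either comparison. The background was as thin: 5 of 16588 genes (0.0301%) passed against Mock and 60 of 15148 (0.396%) with doxycycline, and both counts rest on single libraries. The count against Mock was 49 without ZNF683 library 1, 3 without ZNF683 library 2, 1 without Mock library 1, 0 without Mock library 2 and 8 without Mock library 3. With doxycycline it was 19, 14 and 17 without Dox+ libraries 1, 2 and 3, and 0, 40 and 2788 without Dox- libraries 1, 2 and 3, the last with 1 of the 9 genes (ITGA1). At an unadjusted p under 0.05, 4 of the 8 genes tested against Mock (ITGA1, RUNX3, S1PR1 and CCR7, all higher) stood beside 13.0% of all genes (6.55% higher), and 0 of 7 with doxycycline beside 6.34%. An exact permutation test of 3 against 3 libraries cannot go below p = 0.1, which every pair of groups that do not overlap reaches.

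ZNF683, the gene the cells were made to express, was at 1.17, 1.76 and 1.04 TPM in ZNF683 libraries 1 to 3 and at 0.715, 1.59 and 0.681 TPM in Mock. Mock library 2 lay above ZNF683 libraries 1 and 3, so the groups overlapped. The means were 1.32 ± 0.387 and 0.996 ± 0.517 TPM (SD, n = 3 each), a log2 change of 0.24 ± 0.21 (SE; limma adjusted p = 0.611; two-sided exact permutation p = 0.4). In the doxycycline table ZNF683 was at 0.453, 0.774 and 0.571 TPM with the drug and at 0.115, 0.239 and 0.451 TPM without it. Every Dox+ library was above every Dox- library, though Dox+ library 1 (0.453) and Dox- library 3 (0.451) nearly touch. The means of 0.599 ± 0.163 and 0.268 ± 0.170 TPM are below the 1 TPM needed for the fit (exact permutation p = 0.1). Dox- library 3, the only Dox- library that did not stand apart, left a difference of 0.14 on the log2 scale when taken alone, against 0.34 with all 3 and 0.29 after median-of-ratios scaling. TPM summed over the gene does not say whether reads of an introduced ZNF683 sequence were counted, so the labelled induction rests on the labels.

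PRDM1, the other repressor, was at 0.344, 0.403 and 0.667 TPM in ZNF683 libraries and at 0.762, 0.949 and 0.505 TPM in Mock. ZNF683 library 3 lay above Mock library 3, and the other ZNF683 libraries lay below all of Mock. Means were 0.471 ± 0.172 and 0.739 ± 0.223 TPM (n = 3 each; exact permutation p = 0.2), under the level needed for the fit. With doxycycline PRDM1 was at 0.446, 0.219 and 0.307 TPM, against 0.506, 1.34 and 0.413 TPM without. Here the Dox- library with high HSPA6, library 2, held the highest value of all 12, and the groups overlapped (means 0.324 ± 0.115 and 0.753 ± 0.511 TPM, exact permutation p = 0.2). The log2 difference of -0.37 was -0.43 after scaling and -0.097 without Dox- libraries 1 and 2. PRDM1's means were lower in the induced group of both comparisons, without a test that could call either. ATG5, a gene of autophagy on the opposite strand that overlaps the PRDM1 locus (chr6:106086320-106109939 in GENCODE v29, build GRCh38), was at 54.5 and 48.8 TPM in ZNF683 and Mock, far above PRDM1. Whether the counting used strand is not given in the sources used here.

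In a list of PRDM family genes together with ZNF683, 0 of 8 tested against Mock (ZNF683 and 7 of the family) passed. With doxycycline 0 of 5 passed. PRDM8, a member known from neural and retinal development, did not overlap in either comparison: 4.11 ± 1.60 against 2.12 ± 0.135 TPM (adjusted p = 0.344) and 4.10 ± 0.139 against 1.94 ± 1.76 TPM (adjusted p = 0.645). Of genes linked to Blimp-1 in lymphocytes, 0 of 8 passed against Mock and 1 of 6 with doxycycline, PRF1, which encodes the pore-forming protein of cytotoxic cells. PRF1 was at 9.17, 13.8 and 12.1 TPM in ZNF683 and 5.43, 5.71 and 6.82 TPM in Mock, and at 6.56, 8.04 and 6.13 TPM in Dox+ and 1.45, 0.709 and 3.72 TPM in Dox-. The groups were apart in both comparisons. The log2 changes were 0.85 ± 0.16 (limma adjusted p = 0.222) and 1.54 ± 0.41 (adjusted p = 0.0437). The second call was lost after median-of-ratios scaling (1.35, adjusted p = 0.685), and the change was 0.74 with Dox- library 3 as the only reference. XBP1, a plasma cell and secretory factor, was also apart in both, at 160.0 ± 41.3 against 103 ± 8.85 TPM (adjusted p = 0.319) and 144.6 ± 5.0 against 98.2 ± 31.7 TPM (adjusted p = 0.737; log2 change 0.61, and 0.38 after scaling). MYC and PAX5, which Blimp-1 is known to repress in B cells, gave no call; PAX5 was at 2.57 ± 0.0259 TPM in ZNF683 and 3.61 ± 0.483 TPM in Mock, with no overlap (log2 change -0.36, adjusted p = 0.340).

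ITGA1 had the largest log2(TPM + 1) difference of the 9 genes in both comparisons, as deposited. With doxycycline that place rests on the added 1 TPM. With 0.1 TPM added instead, CCR7 (1.16) and ZNF683 (1.00) exceeded ITGA1 (0.96). As ratios of means, ZNF683 was 2.23-fold and CCR7 2.18-fold apart with doxycycline, and ITGA1 1.90-fold. ITGA1 encodes the alpha chain of the collagen receptor CD49a. Its level was 9.28, 6.06 and 10.4 TPM in ZNF683 libraries 1 to 3 and 5.22, 2.98 and 4.19 TPM in Mock. All ZNF683 libraries were above all Mock libraries, with the lowest ZNF683 library close to the highest Mock library. The means were 8.58 ± 2.26 and 4.13 ± 1.12 TPM (n = 3 each), 2.08-fold apart, and the log2 change of 0.90 ± 0.22 exceeded that of 99.5% of the genes tested (limma p = 0.00366 before and 0.279 after adjustment; exact permutation p = 0.1). In the doxycycline table ITGA1 was at 7.13, 6.85 and 6.29 TPM with the drug and 2.71, 2.99 and 4.95 TPM without. Again no Dox+ library fell as low as any Dox- library, and Dox- library 3 was the nearest. Means were 6.76 ± 0.425 and 3.55 ± 1.2 TPM, 1.90-fold apart, with a log2 change of 0.80 ± 0.41 (limma adjusted p = 0.737; exact permutation p = 0.1) where the median gene had 0.32. Median-of-ratios scaling left 0.61 with a median gene at 0.13, scaling over the tested genes left 0.50, and Dox- library 3 alone as the reference left 0.38. Without Dox- library 3, the change was 1.01 and passed (limma adjusted p = 0.0351). In that setting 2788 of 15127 genes passed, 2754 of them higher, and only the Dox- libraries that stood apart remain.

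The gene lies at chr5:52787896-52959210 on the plus strand (GENCODE v29, GRCh38). PELO, a gene of ribosome rescue, lies inside it on the same strand and was apart against Mock as well, at 29.2 ± 2.13 and 18.6 ± 2.36 TPM (log2 change 0.63, limma adjusted p = 0.225). With doxycycline PELO was at 17.4 ± 0.935 and 15.5 ± 6.81 TPM and overlapped, while ITGA1 did not. How reads shared by PELO and ITGA1 were divided was not tested. ITGB1, the beta chain that pairs with CD49a, was present at 91.6 ± 9.83 and 78.9 ± 7.96 TPM in ZNF683 and Mock and at 93.4 ± 1.77 and 66.4 ± 23.8 TPM in Dox+ and Dox-.

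Promoter sequences are shown for ITGA1 and for RUNX3 and S1PR1, a residency and an egress gene that also lay above Mock in every ZNF683 library, so that the letters before their starts can be compared. They are the 250 bases upstream of the start in RefSeq on GRCh38.p14, which held 10 promoters for 7 of the 9 genes: ITGA1 is chr5:52787666-52787915 on the plus strand, RUNX3 is chr1:24965011-24965260 on the minus strand and S1PR1 is chr1:101236769-101237018 on the plus strand. Capitals mark matches, on either strand, to TGNGGT or CCNCNCCC, where N is any base. TGNGGT is looser than the RUNX core, which has T or C at the N. CCNCNCCC is the GC box of KLF and SP factors.
ITGA1: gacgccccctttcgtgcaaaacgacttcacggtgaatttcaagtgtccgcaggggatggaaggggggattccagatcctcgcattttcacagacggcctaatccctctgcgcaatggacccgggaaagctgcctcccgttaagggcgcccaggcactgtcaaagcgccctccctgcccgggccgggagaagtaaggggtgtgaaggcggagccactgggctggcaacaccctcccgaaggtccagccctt
RUNX3: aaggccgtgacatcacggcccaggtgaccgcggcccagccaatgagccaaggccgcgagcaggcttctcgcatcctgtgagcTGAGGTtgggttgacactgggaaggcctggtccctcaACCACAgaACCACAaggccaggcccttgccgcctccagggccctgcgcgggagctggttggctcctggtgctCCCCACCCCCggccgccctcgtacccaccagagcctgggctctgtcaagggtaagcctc
S1PR1: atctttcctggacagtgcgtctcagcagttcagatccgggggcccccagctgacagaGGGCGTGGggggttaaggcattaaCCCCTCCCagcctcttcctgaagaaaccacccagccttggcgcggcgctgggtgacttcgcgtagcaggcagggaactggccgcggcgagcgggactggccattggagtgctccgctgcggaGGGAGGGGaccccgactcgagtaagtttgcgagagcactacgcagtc
The ITGA1 stretch has no match to any of the 5 motifs searched. RUNX3 holds 3 separate matches to TGNGGT, 1 read as TGAGGT and the others as ACCACA on the opposite strand. The TGAGGT match lies outside the narrower RUNX core. A run of overlapping GC boxes follows these matches, and S1PR1 holds 3 separate GC boxes. These letters are common: TGNGGT was in 37.7% and CCNCNCCC in 53.4% of 35116 promoters of this length. The core bound by Blimp-1, AGNGAAAG, was in 0 of the 10 promoters of these genes and in 6.57% of all. An AP-1 site, TGANTCA, was in 1 of the 10, the second start of PRDM1, and in 6.57% of all, and the EGR site GCGNGGGCG was in the promoters of KLF2 and of the second RUNX3 start, and in 8.41% of all. EGR and GC box letters can overlap. A match here is only a match of letters, and no binding was measured.

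**Figure D2:**
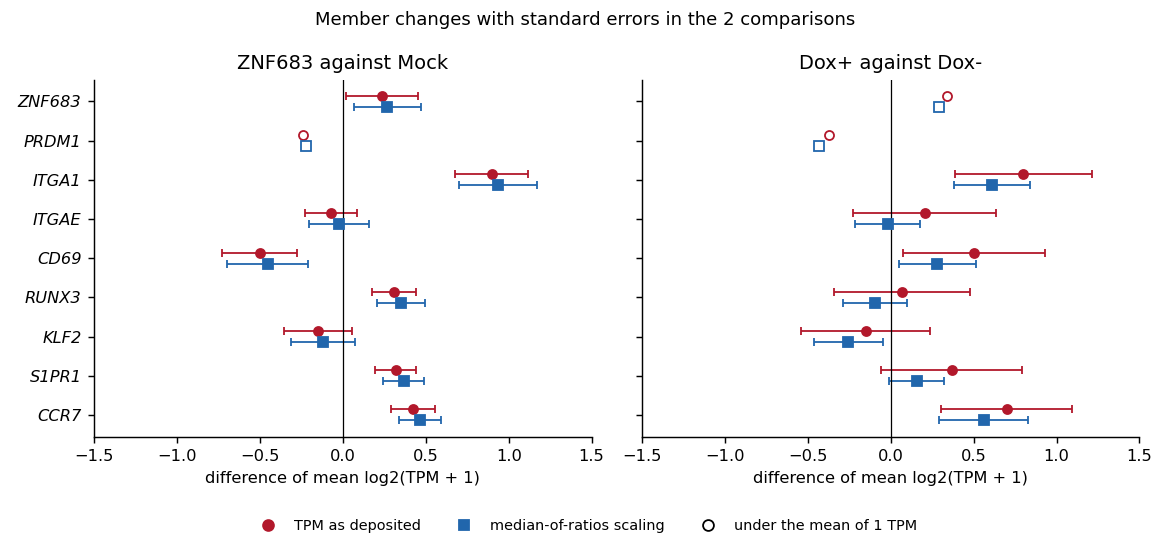
Difference of mean log2(TPM + 1) for the 9 genes (horizontal axes), ZNF683 minus Mock on the left and Dox+ minus Dox- on the right, with TPM as deposited (red circles) and after median-of-ratios scaling (blue squares). Bars are limma standard errors, and open symbols without bars are genes under a mean of 1 TPM; ITGA1 lies farthest right in both panels, and CD69 lies at -0.50 on the left and 0.50 on the right.

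ITGAE, the alpha chain of CD103, gave changes near 0. It was at 103, 105 and 142 TPM in ZNF683 and 139.7, 107 and 119.9 TPM in Mock, ranges that lie over each other. The log2 change was -0.073 ± 0.16 (limma adjusted p = 0.838; exact permutation p = 0.6). With doxycycline it was at 113, 121 and 134 TPM, against 55.0, 169 and 127 TPM without, where Dox- library 1 was the lowest and Dox- library 2 the highest of all 12. The log2 change of 0.20 ± 0.43 (adjusted p = 0.857) turned to -0.018 after median-of-ratios scaling and to -0.060 without those libraries. ITGB7, its only known partner chain, was far lower at 3.70 ± 0.354 and 3.30 ± 0.190 TPM in ZNF683 and Mock and 2.37 ± 0.305 and 2.13 ± 0.814 TPM in Dox+ and Dox-. CDH1, which encodes the ligand E-cadherin, was at 1.34 ± 0.280 and 1.66 ± 0.273 TPM in the first table and under 1 TPM in the second. Besides ITGA1 and ITGAE, 6 integrin partners and ligands were tested against Mock and 5 with doxycycline, and 0 passed. ITGA4, the chain that pairs with ITGB1 or ITGB7 in homing, did not overlap against Mock (188 ± 15.0 and 168 ± 8.68 TPM, adjusted p = 0.498). The TGF-beta pathway, known to induce ITGAE in tissues, had 0 of 11 genes called in each comparison, with SMURF1 (1.57 ± 0.114 and 2.09 ± 0.235 TPM) and ITGAV (1.82 ± 0.170 and 2.31 ± 0.296 TPM) below Mock in every ZNF683 library.

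CD69 had a lower mean in ZNF683 than in Mock and a higher mean in Dox+ than in Dox-. It was at 40.8, 49.3 and 35.1 TPM in ZNF683 libraries and at 71.3, 70.5 and 40.7 TPM in Mock. Mock libraries 1 and 2 were above all ZNF683 libraries, and Mock library 3 fell among them. The means were 41.7 ± 7.15 and 60.8 ± 17.4 TPM, with a log2 change of -0.50 ± 0.23 (limma adjusted p = 0.391; exact permutation p = 0.3). Without Mock library 3 it was -0.76 (adjusted p = 0.0838), and with any other library left out it was -0.37 to -0.63. HSPA6, which was higher in Mock, moved with this difference, and its part in it was not tested. With doxycycline CD69 was at 45.5, 50.3 and 35.2 TPM, and without it at 21.0, 47.3 and 27.7 TPM. Dox- library 2 was again within the range of the treated libraries. The log2 change was 0.50 ± 0.43 (adjusted p = 0.738; exact permutation p = 0.3). It was 0.28 after median-of-ratios scaling, 0.14 with scaling over the tested genes and 0.62 without Dox- libraries 1 and 2, and it ranged from 0.25 to 0.82 with a single library left out, lowest without Dox- library 1 and highest without Dox- library 2. The change against Mock minus that with doxycycline was -1.003 ± 0.44 (limma adjusted p = 0.876 over 14468 genes), where the median gene had -0.28. The unadjusted p of CD69 from limma was under 0.05, as it was for 3.75% of all genes, and 0.0138% passed after adjustment.

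EGR1, an immediate early factor induced by T cell receptor signals as CD69 is, had the same pair of directions without overlap. It was at 1.80, 3.72 and 3.81 TPM in ZNF683 and 11.8, 7.79 and 4.68 TPM in Mock, and at 3.75, 3.54 and 1.42 TPM in Dox+ and 1.24, 1.28 and 0.875 TPM in Dox-. ZNF683 libraries all lay below Mock, and Dox+ libraries all lay above Dox-. The log2 changes were -1.11 ± 0.32 (limma adjusted p = 0.289) and 0.82 ± 0.40 (adjusted p = 0.737). After scaling the second was 0.64, and 0.99 without Dox- libraries 1 and 2. They differed by -1.93 ± 0.46 (limma adjusted p = 0.876). That difference passed without Dox- library 2 (-1.98, limma adjusted p = 0.0251) or Dox- library 3 (-1.84, limma adjusted p = 0.0373). In these settings 25 of 14218 and 2550 of 14423 genes passed, and the second keeps only the Dox- libraries that stood apart. FOS, a subunit of AP-1, was at 1.17 ± 0.181 and 1.98 ± 0.640 TPM in ZNF683 and Mock. JUN, its partner, was at 7.99 ± 0.493 and 6.46 ± 0.565 TPM. With doxycycline both had lower means in Dox+, with log2 changes of -0.97 for FOS and -0.63 for JUN (limma adjusted p = 0.605 and 0.737). Neither FOS nor JUN thus had CD69's pair of directions. Dox- library 2 was the highest for both. The other Dox- libraries lay within the Dox+ range for FOS and below it for JUN. Of the 10 factors upstream of CD69 and Blimp-1 tested against Mock, and of 9 with doxycycline, 0 passed. EGR1 had the smallest unadjusted limma p of this list and was named for it. Among the factors tested in both comparisons, EGR1 alone had CD69's pair of directions. Several early response genes were high in Dox- library 2 alone: RGS2 was at 91.1 TPM there and at 1.98 to 3.65 TPM in the other doxycycline libraries, and NR4A1 at 20.9 TPM against 1.28 to 2.77 TPM. CD69 in that library was the highest of Dox-.

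RUNX3 was at 6.72, 5.44 and 5.22 TPM in ZNF683 and 4.89, 4.22 and 4.28 TPM in Mock. The groups were apart as deposited and overlapped after median-of-ratios scaling. Means were 5.79 ± 0.813 and 4.47 ± 0.371 TPM (log2 change 0.31 ± 0.13, limma p = 0.0451, adjusted p = 0.377; exact permutation p = 0.1). With doxycycline it was at 4.41, 3.46 and 2.83 TPM, and without at 2.15, 4.68 and 3.47 TPM, with Dox- library 2 the highest. The log2 change of 0.069 ± 0.41 (adjusted p = 0.953) became -0.095 after scaling and 0.017 without Dox- libraries 1 and 2. RUNX1, the family member prominent in early T cells, was lower than Mock in every ZNF683 library, at 36.4 ± 1.78 and 50.2 ± 4.39 TPM (log2 change -0.45 ± 0.10, limma adjusted p = 0.271). With doxycycline RUNX1 was at 50.0 ± 8.10 and 56.5 ± 20.5 TPM. CBFB, the shared partner of RUNX proteins, did not overlap with doxycycline (48.7 ± 7.41 and 32.6 ± 7.96 TPM, adjusted p = 0.737), and 0 of the 4 genes of this group that were tested passed in either comparison.

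Among 11 genes of the residency programme, members included, tested against Mock and 9 with doxycycline, 0 passed in either. The median log2 changes were -0.073 and 0.069, beside 0.028 and 0.32 for all genes. Without the members the medians were -0.10 against Mock and -0.67 with doxycycline. Of those genes, 2 of 6 and 1 of 5 had positive changes, beside 54.9% and 79.1% of all genes. BHLHE40, NR4A1, RGS2 and RBPJ, the genes with negative doxycycline changes, were each highest in Dox- library 2. BHLHE40, a stress-responsive repressor of resident cells, was lower with doxycycline in every library (1.29 ± 0.296 and 7.42 ± 8.58 TPM, log2 change -1.38, adjusted p = 0.118), with Dox- library 2 at 17.3 TPM. RBPJ, the effector of Notch signalling, was at 97.0 ± 0.991 and 105 ± 4.24 TPM in ZNF683 and Mock with no overlap (log2 change -0.12, adjusted p = 0.551).

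KLF2 was near the lower end of the tested range. It was at 1.18, 1.38 and 1.25 TPM in ZNF683 and 1.48, 2.34 and 0.927 TPM in Mock. Mock spanned the whole ZNF683 range, and the log2 change was -0.15 ± 0.21 (limma adjusted p = 0.734; exact permutation p = 0.7). With doxycycline it was at 0.989, 1.08 and 0.869 TPM, and without at 0.819, 1.92 and 0.991 TPM, with a log2 change of -0.15 ± 0.39 (adjusted p = 0.885; exact permutation p = 0.8). Dox- library 2 was the highest of those 6. Scaling gave -0.26, and without Dox- libraries 1 and 2 KLF2 averaged under 1 TPM and was not fitted. Among KLF genes 0 of 10 passed in each comparison. KLF7 (7.71 ± 0.729 and 5.33 ± 0.536 TPM, adjusted p = 0.283) and KLF11 (4.04 ± 0.251 and 2.77 ± 0.494 TPM, adjusted p = 0.326) were above Mock in every ZNF683 library. The kinases and factors upstream of KLF2 had 0 of 11 called against Mock and 0 of 10 with doxycycline; PIK3CD, a lymphocyte PI3-kinase subunit in that list, was at 12.1 ± 0.810 and 7.18 ± 3.29 TPM with and without doxycycline, with no overlap (adjusted p = 0.737).

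S1PR1, the egress receptor, was at 32.7, 36.7 and 29.1 TPM in ZNF683 and 23.4, 27.0 and 27.8 TPM in Mock. Every ZNF683 library was above every Mock library. Means were 32.8 ± 3.79 and 26.1 ± 2.38 TPM, 1.26-fold apart (log2 change 0.32 ± 0.12, limma p = 0.0309, adjusted p = 0.355; exact permutation p = 0.1). With doxycycline S1PR1 was at 24.2, 26.8 and 25.3 TPM, and without at 10.5, 26.8 and 25.9 TPM. Dox- libraries 2 and 3 matched the treated ones, and Dox- library 1 was the lowest of all 12. The log2 change of 0.37 ± 0.43 (limma adjusted p = 0.764) was 0.16 after median-of-ratios scaling, 0.018 with scaling over the tested genes and -0.025 without Dox- libraries 1 and 2.

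Of 14 genes of S1P sensing and metabolism tested in each comparison, 0 passed. SPHK1, a kinase that makes the S1P ligand, was at 9.20 ± 0.638 TPM in ZNF683 and 7.85 ± 0.248 TPM in Mock, and ARRB2, an arrestin that desensitizes receptors, at 178 ± 16.7 and 148 ± 5.07 TPM. Both lay above Mock in every ZNF683 library (adjusted p = 0.430 and 0.373), whereas the exporter SPNS2 lay below (1.57 ± 0.0673 and 1.83 ± 0.122 TPM, adjusted p = 0.602). Other receptors of the ligand overlapped: S1PR2 was at 20.5 ± 2.08 and 25.7 ± 6.73 TPM and S1PR3 at 20.4 ± 2.50 and 18.6 ± 3.32 TPM in ZNF683 and Mock. The median log2 change of the 14 genes was 0.081 against Mock and 0.36 with doxycycline, beside 0.028 and 0.32 for all genes.

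CCR7, the lymph node homing receptor, was at 5.22, 5.58 and 4.31 TPM in ZNF683 and 3.10, 3.64 and 3.74 TPM in Mock. The groups were apart before and after scaling. Means were 5.04 ± 0.653 and 3.49 ± 0.341 TPM, 1.44-fold apart (log2 change 0.42 ± 0.13, limma p = 0.0128, adjusted p = 0.317; exact permutation p = 0.1). With doxycycline it was at 1.57, 2.73 and 2.31 TPM, and without at 0.716, 0.587 and 1.73 TPM. Dox- library 3 lay above Dox+ library 1, so the groups overlapped. Means were 2.20 ± 0.587 and 1.01 ± 0.625 TPM (log2 change 0.70 ± 0.39, adjusted p = 0.737; exact permutation p = 0.2), and it was 0.56 after scaling and 0.21 without Dox- libraries 1 and 2.

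Of the 5 chemokine receptors tested against Mock and the 4 tested with doxycycline, CCR7 included, 0 passed. CCR8, a receptor of skin and regulatory T cells, was at 7.08 ± 1.39 and 5.11 ± 0.281 TPM in ZNF683 and Mock (adjusted p = 0.354), and CXCR4, the receptor for bone marrow homing, at 126 ± 7.13 and 118 ± 3.81 TPM (adjusted p = 0.636), both without overlap. In the egress programme, members included, 0 of 13 genes passed in each comparison. LEF1, a factor of naive and central memory T cells, was apart in both: 855 ± 155 and 624 ± 53.2 TPM in ZNF683 and Mock (adjusted p = 0.339), and 1294 ± 81.3 and 783 ± 269 TPM in Dox+ and Dox- (adjusted p = 0.737). Its doxycycline change of 0.77 was 0.55 after scaling and 0.24 without Dox- libraries 1 and 2.

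Against Mock, 4 of the 8 tested genes (ITGA1, RUNX3, S1PR1 and CCR7) had ZNF683 libraries all above Mock, beside 8.71% of all genes, and 0 had them all below, beside 8.51%. After median-of-ratios scaling 3 remained above (ITGA1, S1PR1 and CCR7), beside 11.8%. With doxycycline 1 of 7 (ITGA1) was wholly above and 0 below, beside 7.91% and 0.891%, and ITGA1 stayed so after scaling, beside 9.45%. The median log2 change of the tested members was 0.27 against Mock, where all genes had 0.028, and 0.37 with doxycycline, where all genes had 0.32. Genes of residency and of egress stood on both sides: ITGA1 and RUNX3 were higher than Mock with S1PR1 and CCR7, while CD69 and KLF2 had lower means.

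**Figure D3:**
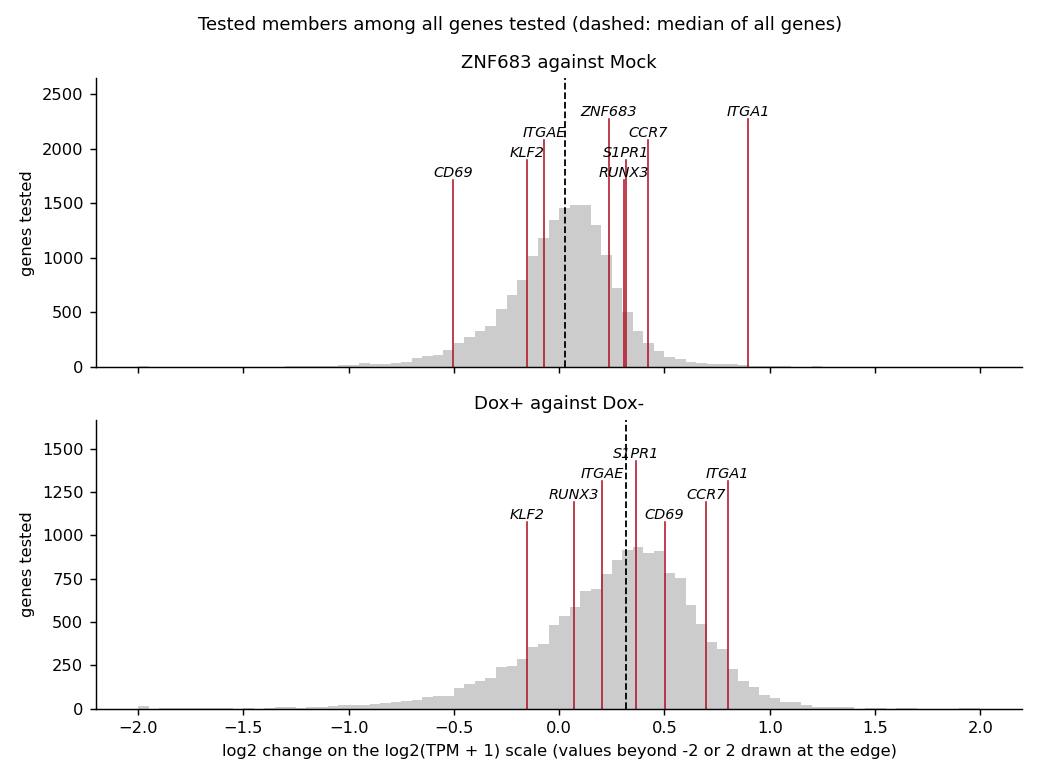
Number of tested genes (vertical axes) by log2 change (horizontal axis) for ZNF683 against Mock in the upper and Dox+ against Dox- in the lower panel, with red lines at the tested genes among the 9 and a dashed line at the median of all genes. ITGA1 lies above 99.5% of tested genes in the upper and 94.5% in the lower panel, CCR7 above 95.8% and 89.6%, and CD69 above 4.46% and 72.4%.

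Ratios of genes within a library do not depend on how libraries are scaled, and 9 ratios were taken in each comparison, with pairs chosen after values were seen. The ratio of ITGA1 to its partner ITGB1 was 0.0767, 0.0719 and 0.0685 in Dox+ libraries and 0.0561, 0.0519 and 0.0531 in Dox-. All Dox+ ratios were above all Dox- ratios, including the libraries that stood apart (0.0723 ± 0.00410 and 0.0537 ± 0.00219, n = 3 each, exact permutation p = 0.1, the smallest possible). Against Mock the same ratio overlapped (0.0958 ± 0.0336 and 0.0534 ± 0.0192). ITGA1 relative to ITGAE was 0.0737 ± 0.0158 and 0.0334 ± 0.00492 in ZNF683 and Mock without overlap, and overlapped with doxycycline.

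RUNX3 relative to RUNX1 was 0.196, 0.146 and 0.139 in ZNF683 and 0.101, 0.0764 and 0.0908 in Mock, and 0.0752, 0.0706 and 0.0664 in Dox+ and 0.0588, 0.0604 and 0.0626 in Dox-. It was the only 1 of the 9 ratios without overlap in both comparisons (exact permutation p = 0.1 each). CCR7 relative to S1PR1 was 0.160, 0.152 and 0.148 in ZNF683, above 0.133, 0.134 and 0.134 in Mock, and overlapped with doxycycline. CD69 relative to S1PR1, whose proteins oppose each other at the cell surface, was 1.25, 1.34 and 1.21 in ZNF683 and 3.05, 2.61 and 1.46 in Mock. All ZNF683 ratios were below Mock, although CD69 alone overlapped. With doxycycline that ratio was 1.72 ± 0.283 and 1.61 ± 0.481 and overlapped. With 18 ratio comparisons at a smallest possible p of 0.1, none could pass an adjusted threshold.

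**Figure D4:**
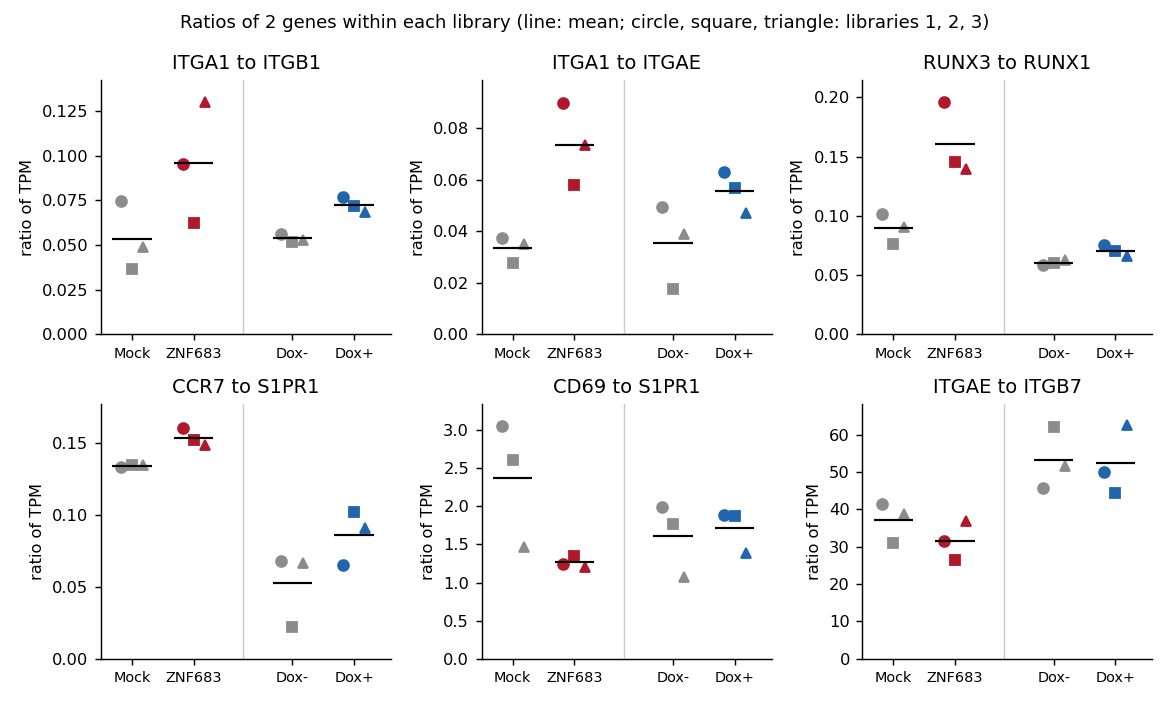
Ratios of TPM between pairs of genes within each library (vertical axes), by group along the horizontal axis; symbols are libraries and lines are group means, for 6 of the 9 ratios. RUNX3 to RUNX1 is the ratio whose groups are apart in both comparisons, and ITGA1 to ITGB1 is apart for Dox+ and Dox- alone.

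The change against Mock and the change with doxycycline come from separate libraries, and for none of the 7 genes tested in both did the difference pass (limma adjusted p from 0.876 for CD69 to 0.982 for S1PR1, and 1.0 for KLF2). The difference was 0.10 ± 0.39 for ITGA1, 0.24 ± 0.37 for RUNX3 and -0.28 ± 0.37 for CCR7. These standard errors leave room for differences as large as the changes themselves.

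Over the 12 libraries, with levels scaled by median of ratios and centred within each table, the protein-coding genes most like each member were named as a description over points that share library composition. For ITGA1 they were ANXA1 (Pearson r = 0.91), an anti-inflammatory phospholipid-binding protein, and MX2 (0.90), an interferon-induced GTPase. ANXA1 was at 325 ± 7.27 and 233 ± 16.7 TPM in ZNF683 and Mock and 323 ± 20.3 and 208 ± 62.6 TPM in Dox+ and Dox-. For CCR7 they were RGS3 (0.98), a regulator of G protein signalling, and SUPT20H (0.97), and RGS3 was at 8.16 ± 1.15 and 5.41 ± 0.664 TPM and at 4.59 ± 0.807 and 2.39 ± 1.52 TPM. CCR7 had many such companions, since the gene ranked at place 100 still had r = 0.92, against 0.79 for ITGA1. The nearest to S1PR1 were ILKAP (0.96) and RFTN1 (0.95), a lipid raft protein, and to ITGAE SAP18 (0.98) and HSPB11 (0.93). CD69 was followed by KIZ (0.93) and EID2B (0.92), RUNX3 by ATXN7L3 (0.90) and TLK2 (0.88), and KLF2 by UBE2W (0.92) and ATP6V1G2 (0.90).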

How the data were processed

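RNA was extracted with a Qiagen kit and libraries were made with a NEBNext low-input kit, per the labels' protocols. The TPM values were deposited by the authors in one table for ZNF683 and Mock and another for Dox+ and Dox-; kallisto 0.46.0 and DESeq2 1.22.2 are named in the submitters' processing notes without their roles. The genome build, the transcript set and the strand setting are not given in the sources used here. Read depth is unknown because TPM keeps none, so no counting interval is given.

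Each table was analysed apart, with 3 libraries per group. A gene entered its table's fit where the 6 libraries averaged 1 TPM or more. The fit used limma 3.58.1 (R 4.3.3) on log2(TPM + 1) (empirical Bayes with trend, two-sided, Benjamini-Hochberg adjustment, threshold 0.05), and the difference of the 2 changes was a contrast over all 12 libraries. The doxycycline fit gave the spread an infinite prior weight. There a gene's own replicate spread does not enter its standard error, except through the trend fitted over all genes. Single genes also had an exact permutation test. The fit was tested on simulated data. Python 3.11.15 and pandas 2.3.3 were used for the rest. Other settings were the pseudocount, no filter, median-of-ratios scaling, AL135790.1 left out, no trend, robust moderation, a replicate block and each library left out; scaling over the tested genes and leaving out Dox- libraries 1 and 2 together were added after the data were seen.

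The 9 genes and 12 gene lists (141 genes, 139 of them in the doxycycline table) were chosen with earlier results of these data known. Named beside the 9 were tested integrin and S1P partners, up to 4 genes per other list by smallest p, and the 2 genes most correlated with each member; 1 gene that this rule names is not reported here. Genes outside that rule, namely PELO, ATG5, CD4, CD8A, CD8B, CD79A, HSPA6 and AL135790.1, were named after their values were seen. Promoters came from RefSeq, matched by symbol.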

Additional observations from a re-analysis of the deposited data

How the results depend on the processing

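Among the 9 genes 0 passed the threshold under any setting, except that ITGA1 passed with doxycycline without Dox- library 3. In that setting 2788 of 15127 genes passed. The count for the 9 genes thus ranged from 0 to 1 with a library left out. Counts over all genes were less steady. Against Mock the 5 genes became 3 with a pseudocount of 0.1 TPM, 0 with no filter (3957 at an unadjusted p under 0.05), 8 with robust moderation, 0 with a replicate block, and 0 to 49 with a library left out. With doxycycline the 60 genes became 0 with no filter (1082 unadjusted), 1 with median-of-ratios scaling (0 over the tested genes), 0 with AL135790.1 left out, 23 with robust moderation, 34 with a replicate block, and 0 to 2788 with a library left out. Without Dox- libraries 1 and 2 it was 0, but that fit has a single Dox- library, assumed to vary like the Dox+ libraries, and says nothing of stability. The 2 genes whose changes differed became 1 with either scaling or AL135790.1 left out, 60 with a replicate block, and 1 to 2550 with a library left out, the highest without Dox- library 3. The replicate numbers in the titles are not shown to pair samples: same-numbered libraries correlated at -0.21, 0.068 and -0.25 against Mock and at 0.076, 0.055 and 0.36 with doxycycline. With the block, EGR1's difference of changes passed (-1.93, adjusted p = 0.0131), PRF1's call with doxycycline was lost (adjusted p = 0.307), and no member passed.

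A pseudocount of 0.1 TPM moved PRDM1 to -0.56 against Mock and to -0.89 with doxycycline, and ZNF683 to 1.00 with doxycycline; without Dox- libraries 1 and 2 ZNF683 was at 0.14. With doxycycline, ITGAE turned to -0.018 with median-of-ratios scaling, -0.16 with scaling over the tested genes, -0.10 with AL135790.1 left out and -0.060 without Dox- libraries 1 and 2, RUNX3 to -0.095, -0.21 and -0.16 under the first 3 of these settings, and S1PR1 to -0.025 without Dox- libraries 1 and 2. The difference of changes turned for ITGAE to 0.055 with scaling over the tested genes and 0.0031 with AL135790.1 left out, and for S1PR1 to 0.21, 0.27 and 0.22 under both scalings and with AL135790.1 left out. With a library left out, directions turned within these log2 ranges: against Mock ITGAE -0.22 to 0.027 and KLF2 -0.34 to 0.052; with doxycycline ITGAE -0.26 to 0.54, RUNX3 -0.16 to 0.27 and S1PR1 -0.050 to 0.59, while ITGA1 stayed at 0.67 to 1.01; for the difference ITGA1 -0.11 to 0.30, ITGAE -0.61 to 0.19, KLF2 -0.19 to 0.20 and S1PR1 -0.27 to 0.37. ITGA1, CCR7, CD69, ZNF683 and PRDM1 kept their direction in each comparison under every setting in which they were compared. For CD69 that direction was lower against Mock and higher with doxycycline. PRF1's doxycycline call was also lost with no filter, no trend and robust moderation, its log2 change staying at 1.54, and with any library but Dox- library 3 left out (1.21 to 1.61, adjusted p = 0.359 to 0.963). The cause was not tested, beyond the scale set by AL135790.1 in Dox- library 1.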
